A study of Homo sapiens with 36 samples.

Results

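The 10 melanosome and pigment genes described here are TYR, TYRP1, DCT, PMEL, MLANA, GPR143, OCA2, SLC45A2, TRPM1 and RAB27A, which were chosen by name with earlier results of these data known. All 10 had a row in both deposited tables, 10 of the 13364 genes of the table with 24 libraries and 10 of the 13066 genes of the table with 12 libraries. The 2 tables were normalised separately and had 12896 genes in common, so tests were made only within a table and levels from different tables are side by side without a comparison.

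Transcript ends were counted in 501mel and IGR37, established human melanoma cell lines, with 36 libraries in 12 groups of 3. Stearoyl-CoA desaturase (SCD) is the enzyme that makes monounsaturated fatty acids from saturated ones, and the study lowered its activity or its mRNA for 48 h. In each line, SCDi libraries came from cells given the SCD inhibitor A939372 at 1 uM and DMSO libraries from cells given DMSO, while siSCD_1, siSCD_2, siCTR_1 and siCTR libraries came from cells given the named siRNA at 20 nM. The siSCD_2 groups share a table with siCTR, DMSO and SCDi, and the siSCD_1 groups share the other table with siCTR_1. All groups grew in the same serum-supplemented RPMI medium. Each line stands for itself, and the labels do not say whether the 3 libraries of a group came from separate cultures, so a p-value here reflects just the variation among the libraries sequenced, which may be technical.

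Melanin is made in melanosomes, organelles related to lysosomes. The matrix protein PMEL builds the fibrils of the early melanosome with help from MLANA. Tyrosinase (TYR) carries out the rate-limiting step of melanin synthesis, and its relatives TYRP1 and DCT act on later intermediates. SLC45A2 and OCA2 are membrane transporters that keep the melanosome lumen suited to tyrosinase, GPR143 is a receptor in the melanosome membrane, and RAB27A links mature melanosomes to the actin motor that carries them outwards. TRPM1 is a cation channel of melanocytes. The transcription factor MITF binds short E-box words in the promoters of many of these genes and is known as the regulator of the pigment cell lineage.

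Libraries held 4078450 to 6685898 recovered gene reads in the table of 24 and 2402788 to 7483010 in the table of 12. A gene with 0 reads could therefore have a level of up to 0.416 to 0.720 CPM and 0.388 to 1.19 CPM (a limit of 3 reads, counting error only). SCD mRNA had fallen in all 4 siRNA groups, from a mean of 9.36 to 5.03 log2 CPM (siSCD_2 in 501mel), 10.12 to 5.97 (siSCD_2 in IGR37), 9.79 to 6.94 (siSCD_1 in 501mel) and 10.09 to 7.43 (siSCD_1 in IGR37). With the inhibitor, which acts on the enzyme, SCD mRNA rose in IGR37 (0.63, limma adjusted p = 0.00215) and was 0.29 higher in 501mel (adjusted p = 0.573). The SCD levels of the IGR37 siSCD_2 libraries were spread widely, at 6.52 in replicate 1 and 5.32 and 6.09 in the others. Replicate 1 held 35.3 CPM over 26 genes at 20 CPM or more in 501mel and 1 CPM or less in IGR37 under DMSO. It stood apart in this sum, which was 4.62 to 23.1 CPM in the other IGR37 libraries of that table. In the same way, the 501mel SCDi replicate 2 library held 49.7 CPM over 40 genes that were at 20 CPM or more in IGR37 and 1 CPM or less in 501mel under DMSO, against 13.3 to 25.6 CPM in the other 501mel libraries of that table, and without it none of the 10 genes passed with SCDi in 501mel either. In the table of 12 these 40 genes summed to 30.2 to 37.4 CPM in the 501mel siCTR_1 libraries and 42.9 to 65.3 CPM in the 501mel siSCD_1 libraries, and the part of this in the results was not tested. All 10 listed lineage markers of pigment cells were measured in both tables, with summed levels of 3424 to 6152 CPM and 2392 to 6377 CPM per library. Of the listed markers of other cell types, 1 of 6 keratinocyte genes (KRT10), 1 of 6 blood genes (CD68), 5 and 3 of 7 fibroblast genes and 2 of 4 endothelial genes had rows. Their summed levels were 190 to 281 and 145 to 226 CPM for KRT10, 3.84 to 90.1 and 5.56 to 27.0 CPM for CD68, 5.59 to 36.1 and 3.22 to 23.6 CPM for fibroblast genes, and 0 to 4.22 and 0 to 5.19 CPM for endothelial genes. KRT5, KRT14 and PTPRC, the defining genes of keratinocytes and blood cells, are not analysed here. These are bulk libraries, in which fewer cells expressing a gene and less RNA per cell cannot be told apart.

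MITF and related factors are known to bind the word CATGTG. In RefSeq promoter windows of the GRCh38.p14 build, which run from 250 bases before a gene's start to 50 after it, this word was searched on both strands (CACATG on the gene's own strand is the same word on the other strand, and no other promoter motif was searched). Windows existed for 8 of the 10 genes, and 6 of the 8 held the word: TYR, TYRP1, DCT, OCA2, TRPM1 and GPR143. MLANA and RAB27A had windows without it, and PMEL and SLC45A2 were not matched. Over all promoters, 13.4% of 27305 genes had the word in a window, and 11.1% of 35116 windows of this length held it. The 30 bases around a match in each of the 6 genes, and a further match in TYR, are given 5′ to 3′ on the gene's strand to show where the word lies, with the word in capitals. Further matches that are not printed lay 11 bases before the start in TYRP1, 215 in DCT and 33 in GPR143. TRPM1 had 2 windows at different starts, each with the word, and the match of 1 is printed. The other lay 8 bases before its start. A match describes these letters only.

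TYR, chr11:89177759-89177788, plus strand, 104 bases before the start: agaaaagtcagtCATGTGcttttcagagga
TYR, chr11:89177851-89177880, plus strand, 12 bases before the start: tctcagccaagaCATGTGataatcactgta
TYRP1, chr9:12693229-12693258, plus strand, 144 bases before the start: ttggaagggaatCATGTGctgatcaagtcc
DCT, chr13:94479799-94479828, minus strand, 134 bases before the start: tgcactttgggtCATGTGctaatgatgagg
OCA2, chr15:28099451-28099480, minus strand, 153 bases before the start: tgtgggcggggcCATGTGggcagctttgtg
TRPM1, chr15:31101764-31101793, minus strand, 56 bases before the start: ggcccaagtgctCACATGctcctcatgggg
GPR143, chrX:9765891-9765920, minus strand, 61 bases before the start: agaggcccagggCACATGatgccgccccca

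The first question was how many of the 10 transcripts moved when SCD was inhibited or knocked down. With the inhibitor in 501mel none of the 10 passed in either direction, none had an unadjusted p under 0.05, and limma voom on recovered reads also called none. Over all genes 0.0599% fell and 0.232% rose in that comparison. In IGR37 the inhibitor lowered 7 of the 10 (TYR, TYRP1, DCT, MLANA, SLC45A2, TRPM1 and RAB27A) and raised none, where 23.1% of all genes fell and 20.9% rose. The knockdowns gave further patterns. With siSCD_1 in 501mel 9 of the 10 fell and none rose, beside 22.0% of all genes falling and 20.9% rising. With siSCD_1 in IGR37 4 fell and 2 rose, beside 19.4% and 16.7% of all genes. With siSCD_2 in 501mel 4 fell and TYR rose, beside 19.5% and 18.3%, and with siSCD_2 in IGR37 7 fell and 2 rose, beside 22.7% and 23.2%. Scaled by spike-in RNAs, the inhibitor lowered 5 in IGR37, with TYRP1 and MLANA no longer past the threshold, and siSCD_1 lowered 6 in 501mel, with TYRP1, DCT and OCA2 (adjusted p = 0.387, 0.0545 and 0.185) no longer past it. On that scale 3 fell and 1 rose with siSCD_1 in IGR37, 4 and 0 with siSCD_2 in 501mel, and 5 and 0 with siSCD_2 in IGR37. A transcript was called when its Benjamini-Hochberg adjusted p over all genes of its table was under 0.05 in limma, and changes are log2 fold changes ± SE with n = 3 libraries per group.

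The median change over the 10 genes was 0.04 for SCDi in 501mel, -0.72 for SCDi in IGR37, -0.57 and -0.03 for siSCD_1 in 501mel and IGR37, and -0.11 and -0.67 for siSCD_2 in 501mel and IGR37. Over all genes the median lay between -0.014 and 0.0081 in these 6 comparisons. The median of the 10 was more than 0.5 log2 units below that of all genes for SCDi and siSCD_2 in IGR37 and for siSCD_1 in 501mel. The spike-in RNAs were also used for scaling, in place of the submitters' edgeR normalisation. This moved the median of all genes to 0.53 and 0.18 with SCDi and -0.50 and -0.11 with siSCD_2 (501mel and IGR37 in each case). Single spike-ins moved by -2.74 to 2.26 between groups. The scaling took the median of all spike-ins, also those with few reads. Over the 38 or 40 spike-ins that met a limit of 20 reads, the median change was -0.06 and 0.47 with SCDi. It was 0.98 and 0.79 with siSCD_2, and 0.59 and 0.40 with siSCD_1. A rise of spike-ins scales genes down, so the 0.47 in IGR37 is opposite to the shift of 0.18 above. The spike-in scale thus depends on which spike-ins are taken, and calls with these were not tested. Changes are given on the deposited scale. Its normalisation aims to hold the typical gene steady, so the small median there is no ground for preferring it. A shift shared by all genes cannot be seen on that scale.

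**Figure D1:**
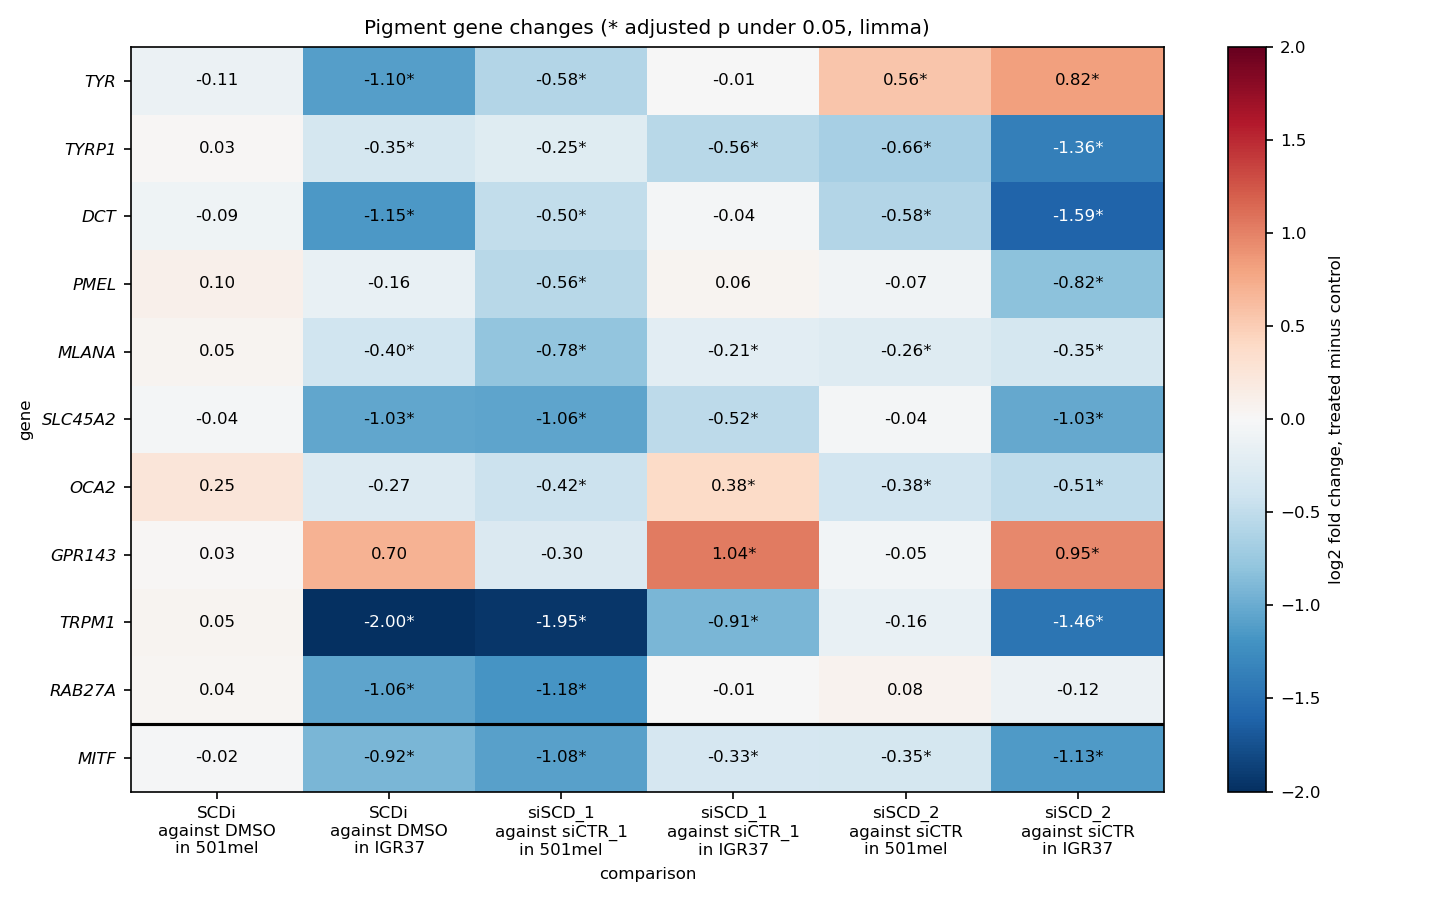
Each cell gives a gene's log2 fold change, treated minus control, in 1 of the 6 comparisons, with an asterisk where the limma adjusted p was under 0.05 and MITF under the line for reference. SCDi against DMSO in 501mel is pale throughout, TYR is red in both siSCD_2 columns, and TRPM1 reaches -2.0 with SCDi in IGR37 and -1.95 with siSCD_1 in 501mel.

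The 3 enzymes of the tyrosinase family did not move together. TYR (ENSG00000077498, hg38 chromosome 11, 89177452 to 89295759, plus strand) stood at 7.97, 7.99 and 7.97 log2 CPM in the IGR37 DMSO libraries and at 6.76, 6.93 and 6.94 in the SCDi libraries. The groups were far apart, and TYR fell by 1.10 ± 0.09 (adjusted p = 3.25e-10). With siSCD_2 in the same line it stood at 8.59, 8.98 and 8.61 against 7.87, 7.99 and 7.88 with siCTR. All treated libraries were above all controls, and TYR rose by 0.82 ± 0.09 (adjusted p = 5.56e-08). In 501mel the siSCD_2 libraries were at 8.96, 8.98 and 8.85 and the siCTR libraries at 8.52, 8.32 and 8.28, a rise of 0.56 ± 0.09 (adjusted p = 2.33e-05). On the spike-in scale these siSCD_2 changes were 0.06 in 501mel (adjusted p = 0.899) and 0.70 in IGR37 (adjusted p = 0.0694), where the median gene had itself moved to -0.50 and -0.11.

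The other siRNA did not raise TYR. In 501mel the siSCD_1 libraries were at 7.72, 7.55 and 7.40 against 8.23, 8.17 and 8.03 with siCTR_1, a fall of 0.58 ± 0.09 (adjusted p = 4.5e-05). In IGR37 the siSCD_1 values of 7.97, 8.10 and 7.91 overlapped the siCTR_1 values of 8.04, 7.93 and 8.04 (-0.01 ± 0.09, adjusted p = 0.951). With SCDi in 501mel TYR was at 8.19, 8.39 and 8.27 against 8.37, 8.45 and 8.36, groups that overlapped (-0.11 ± 0.09, adjusted p = 0.751). TYR thus fell in 2 comparisons, rose in 2 and did not pass in 2. The siRNAs lie in separate tables, so their difference was not tested. In the table of 24 libraries the group means of TYR ran from 8.93 (501mel siSCD_2) and 8.73 (IGR37 siSCD_2), which overlapped, down to 6.88 (IGR37 SCDi), which lay apart from the next group. The pseudogene TYRL (ENSG00000123447, hg38 chromosome 11, 49405091 to 49415789), a partial copy of TYR, has no row of its own in the tables used here, so reads of the 2 may be shared in these values.

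TYRP1 (ENSG00000107165, hg38 chromosome 9, 12685439 to 12710290, plus strand), which stabilises tyrosinase and shapes brown-black pigment, fell in 5 of the 6 comparisons. In IGR37 it dropped from 10.60, 10.53 and 10.57 with siCTR to 9.10, 9.21 and 9.30 with siSCD_2 (-1.36 ± 0.07, adjusted p = 1.23e-13). In 501mel it dropped from 9.80, 9.81 and 9.79 to 9.18, 9.23 and 8.99 (-0.66 ± 0.07, adjusted p = 4.82e-08). No treated library reached its controls in either line. With siSCD_1 in IGR37 the values were 10.00, 9.86 and 9.97 against 10.49, 10.46 and 10.55 (-0.56 ± 0.07, adjusted p = 1.11e-05), and with SCDi in IGR37 9.87, 9.75 and 9.81 against 10.15, 10.19 and 10.13 (-0.35 ± 0.07, adjusted p = 0.000278). The SCDi change was -0.17 on the spike-in scale (adjusted p = 0.736), where the median gene had moved to 0.18. The smallest fall was with siSCD_1 in 501mel, from 9.86, 10.07 and 9.91 to 9.67, 9.73 and 9.71 (-0.25 ± 0.07, adjusted p = 0.00864). That call was lost without the siCTR_1 replicate 2 library (-0.18, adjusted p = 0.0525), on the spike-in scale (-0.24, adjusted p = 0.387) and under quantile normalisation (-0.04, adjusted p = 0.726). With SCDi in 501mel TYRP1 was at 10.33, 10.27 and 10.36 against 10.31, 10.26 and 10.31 (0.03 ± 0.07, adjusted p = 0.966).

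DCT (ENSG00000080166, hg38 chromosome 13, 94436808 to 94479682, minus strand), the dopachrome tautomerase, fell most in IGR37. Its IGR37 siSCD_2 values of 8.82, 8.89 and 8.38 lay below the siCTR values of 10.31, 10.27 and 10.29 by 1.59 ± 0.11 (adjusted p = 6.9e-12). The IGR37 SCDi values of 8.98, 8.85 and 9.06 lay below the DMSO values of 10.23, 10.10 and 10.01 (-1.15 ± 0.11, adjusted p = 2.07e-09). With siSCD_1 in IGR37, by contrast, 10.89, 10.68 and 10.72 overlapped 10.87, 10.71 and 10.83 (-0.04 ± 0.07, adjusted p = 0.709). In 501mel DCT fell with both siRNAs, from 9.29, 9.14 and 9.14 to 8.73, 8.69 and 8.66 with siSCD_1 (-0.50 ± 0.07, adjusted p = 5.19e-05, or 0.0545 on the spike-in scale) and from 7.61, 7.63 and 7.82 to 7.15, 7.03 and 7.13 with siSCD_2 (-0.58 ± 0.11, adjusted p = 8.8e-05). With SCDi in 501mel 8.27, 8.55 and 8.35 overlapped 8.36, 8.59 and 8.49 (-0.09 ± 0.11, adjusted p = 0.862).

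**Figure D2:**
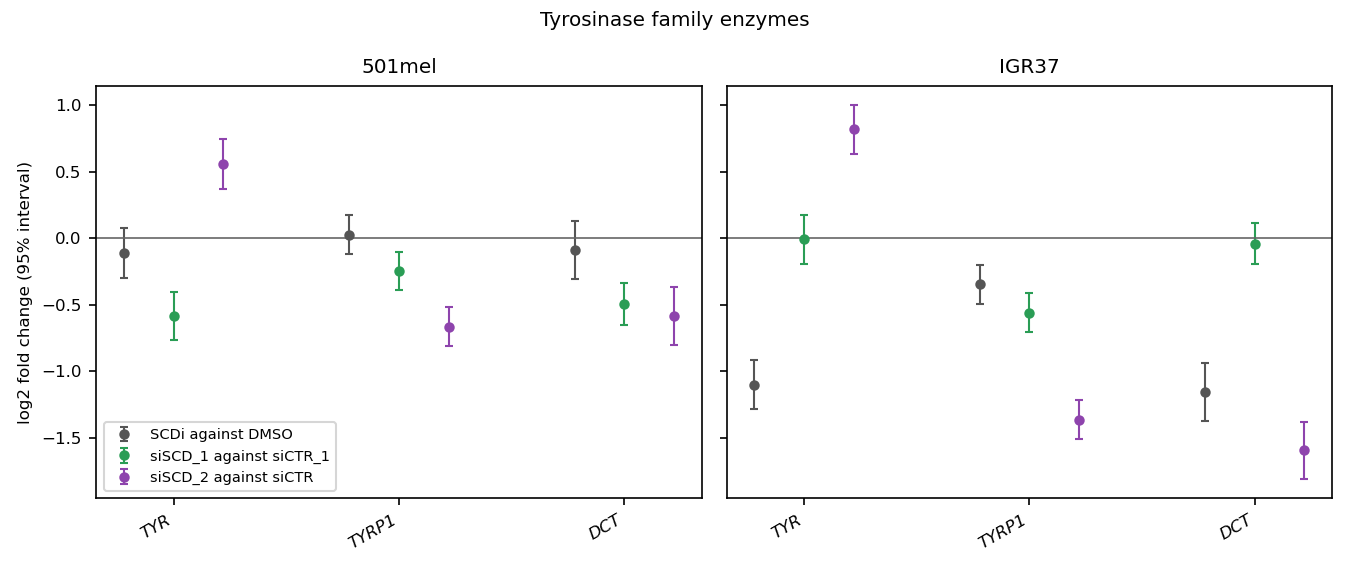
Points give the log2 fold change of TYR, TYRP1 and DCT in 501mel (left) and IGR37 (right) for the 3 treatments, with 95% intervals from limma (n = 3 libraries per group). With siSCD_2 TYR lies above 0 while TYRP1 and DCT lie below it in both lines, and with SCDi in IGR37 all 3 lie below 0.

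The lowest changes of PMEL (-0.82) and MLANA (-0.78) mRNA were smaller than those of TYR (-1.10), TYRP1 (-1.36) and DCT (-1.59). With siSCD_1 in 501mel, however, MLANA fell more than each of these enzymes. PMEL (ENSG00000185664, hg38 chromosome 12, 55954105 to 55973317, minus strand) fell in 2 comparisons. With siSCD_2 in IGR37 it went from 11.28, 11.35 and 11.35 to 10.61, 10.54 and 10.36 (-0.82 ± 0.08, adjusted p = 6.91e-09), and with siSCD_1 in 501mel from 10.47, 10.41 and 10.43 to 9.86, 9.87 and 9.89 (-0.56 ± 0.06, adjusted p = 1.06e-06). Neither pair of groups overlapped. With siSCD_2 in 501mel 10.94, 10.78 and 10.66 overlapped 10.89, 10.88 and 10.81 (-0.07 ± 0.08, adjusted p = 0.554), a difference that passed under quantile normalisation (-0.36, adjusted p = 0.000713). In IGR37 with siSCD_1 PMEL was at 11.00, 11.01 and 10.98 against 10.93, 10.91 and 10.97 (0.06 ± 0.06, adjusted p = 0.426). The inhibitor left PMEL at 10.69, 10.65 and 10.75 against 10.84, 10.78 and 10.94 in IGR37 (-0.16 ± 0.08, adjusted p = 0.121) and at 11.32, 11.32 and 11.33 against 11.20, 11.25 and 11.23 in 501mel (0.10 ± 0.08, adjusted p = 0.759). These groups did not overlap, yet the differences were not past the threshold. The IGR37 one passed under quantile normalisation (-0.23, adjusted p = 0.0186) and was 0.024 on the spike-in scale (adjusted p = 0.969).

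MLANA (ENSG00000120215, hg38 chromosome 9, 5890802 to 5910606, plus strand), the melanoma antigen also called MART-1 that partners PMEL, fell in 5 comparisons. With siSCD_1 in 501mel it went from 8.68, 8.60 and 8.58 to 7.92, 7.76 and 7.83 (-0.78 ± 0.06, adjusted p = 1.17e-07), and with SCDi in IGR37 from 9.04, 9.12 and 9.22 to 8.75, 8.73 and 8.71 (-0.40 ± 0.10, adjusted p = 0.00196). Those groups did not overlap, but the SCDi call was lost on the spike-in scale (-0.22, adjusted p = 0.625). The other 3 falls were small and turned on single libraries. With siSCD_2 in IGR37 the values 8.82, 8.45 and 9.09 were spread wider than the controls at 9.16, 9.13 and 9.14 (-0.35 ± 0.10, adjusted p = 0.00521), and without siSCD_2 replicate 2 the change was -0.19 (adjusted p = 0.0592). A fit of only the groups compared did not call it either (adjusted p = 0.134), nor did the spike-in scale (-0.47, adjusted p = 0.231). In IGR37 the siSCD_1 change was -0.21 ± 0.06 (adjusted p = 0.0187), or -0.18 without siCTR_1 replicate 1 (adjusted p = 0.0847), -0.11 under quantile normalisation (adjusted p = 0.198) and -0.23 on the spike-in scale (adjusted p = 0.439). With siSCD_2 in 501mel it was -0.26 ± 0.10 (adjusted p = 0.0391), and the call was lost without siCTR replicate 1, 2 or 3 or siSCD_2 replicate 1 or 2 in turn (-0.28, -0.24, -0.27, -0.22 and -0.27, adjusted p from 0.0567 to 0.133). With SCDi in 501mel it was 0.05 ± 0.10 (adjusted p = 0.944).

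Of the transporters, SLC45A2 (ENSG00000164175, hg38 chromosome 5, 33944616 to 33984730, minus strand) fell by a like amount in 3 comparisons. In 501mel it went from 10.06, 9.97 and 9.95 with siCTR_1 to 8.96, 8.95 and 8.88 with siSCD_1 (-1.06 ± 0.07, adjusted p = 7.31e-09). In IGR37 it went from 9.19, 9.05 and 9.24 with DMSO to 8.08, 8.05 and 8.25 with SCDi (-1.03 ± 0.09, adjusted p = 4.21e-10). In the same line it went from 9.32, 9.49 and 9.42 with siCTR to 8.44, 8.30 and 8.41 with siSCD_2 (-1.03 ± 0.09, adjusted p = 4.92e-10). In each case every treated library was below every control. The fall with siSCD_1 in IGR37 was smaller, from 9.30, 9.16 and 9.36 to 8.77, 8.79 and 8.69 (-0.52 ± 0.07, adjusted p = 1.76e-05). In 501mel the groups overlapped with siSCD_2 (10.25, 9.97 and 9.99 against 10.01, 10.13 and 10.20, a change of -0.04 ± 0.09, adjusted p = 0.733) and with SCDi (10.55, 10.65 and 10.46 against 10.55, 10.66 and 10.56, a change of -0.04 ± 0.09, adjusted p = 0.945).

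OCA2 (ENSG00000104044, hg38 chromosome 15, 27754875 to 28099358, minus strand), the melanosome chloride channel, had few reads in 501mel. Its IGR37 siSCD_2 libraries were at 6.45, 6.75 and 6.50 against 7.29, 6.92 and 7.02 with siCTR, groups that did not overlap (-0.51 ± 0.14, adjusted p = 0.0036), though the call was lost on the spike-in scale (-0.63, adjusted p = 0.139). In IGR37 with siSCD_1 it was higher, at 7.54, 7.64 and 7.89 against 7.28, 7.46 and 7.18 (0.38 ± 0.14, adjusted p = 0.0391), but the call was lost without siCTR_1 replicate 1 or 3 or siSCD_1 replicate 2 or 3 (0.37, 0.32, 0.41 and 0.28, adjusted p from 0.0514 to 0.158) and on the spike-in scale (0.36, adjusted p = 0.297). The 501mel changes rested on 121 reads over 3 libraries against 235 with siSCD_1 (-0.42 ± 0.14, adjusted p = 0.0206) and on 124 against 155 with siSCD_2 (-0.38 ± 0.14, adjusted p = 0.0322). Neither call held in a fit of only the groups compared (adjusted p = 0.106 and 0.188), and the first was also lost on the spike-in scale (adjusted p = 0.185). The first was lost without siCTR_1 replicate 2 or 3 or siSCD_1 replicate 3 (-0.38, -0.39 and -0.28) and the second without siCTR replicate 3 or siSCD_2 replicate 1 or 2 (-0.29, -0.25 and -0.37). With SCDi OCA2 was -0.27 ± 0.14 in IGR37 (adjusted p = 0.113) and 0.25 ± 0.14 in 501mel (adjusted p = 0.592). In IGR37 that fall passed in a fit of only the groups compared (adjusted p = 0.0338).

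GPR143 (ENSG00000101850, hg38 chromosome X, 9725346 to 9786297, minus strand), the ocular albinism receptor, was well expressed in 501mel only, at 7.08 to 7.79 log2 CPM across its libraries. There it did not pass with SCDi (0.03 ± 0.31, adjusted p = 0.999), siSCD_2 (-0.05 ± 0.31, adjusted p = 0.928) or siSCD_1 (-0.30 ± 0.33, adjusted p = 0.507). These SEs share their spread with the IGR37 libraries, where group SDs were 0.20 to 1.12, against 0.061 to 0.14 in 501mel. They are thus wide for 501mel. The siSCD_1 libraries, at 7.23, 7.29 and 7.08, lay below the siCTR_1 libraries at 7.56, 7.37 and 7.57. That change passed in a fit of only the groups compared (adjusted p = 0.0285) and with limma voom (adjusted p = 0.00743). Over all alternative fits the lowest adjusted p was 0.245 with SCDi and 0.259 with siSCD_2 in 501mel. In IGR37 the gene had a handful of reads. It was called higher with siSCD_2 (0.95 ± 0.31, adjusted p = 0.0138) on 63 reads against 31 over 3 libraries, a ratio of 2.36 with a counting interval of 1.51 to 3.75. Of the 63 reads 42 were in replicate 1, the IGR37 library with the highest sum of 501mel genes, and without it the change was 0.31 (adjusted p = 0.217). Without siCTR replicate 1 it was 0.78 (adjusted p = 0.0718). The call with siSCD_1 (1.04 ± 0.33, adjusted p = 0.0226) rested on 10 reads against 6, a ratio of 2.71 with a counting interval of 0.891 to 9.06. It was lost without siCTR_1 replicate 1 or 3 or siSCD_1 replicate 1 (0.80, 0.96 and 0.62). In a fit of only the groups compared neither call held (adjusted p = 0.249 and 0.161), and the siSCD_2 call was lost on the spike-in scale (0.84, adjusted p = 0.0901). With SCDi in IGR37 there were 37 reads against 24, a ratio of 1.65 with an interval of 0.962 to 2.88 (0.70 ± 0.31, adjusted p = 0.0711), and the change passed without SCDi replicate 2 (0.90, adjusted p = 0.0393). Whether RNA of the other line had a part in the IGR37 values was not tested.

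TRPM1 (ENSG00000134160, hg38 chromosome 15, 31001061 to 31161273, minus strand), the cation channel whose intron also holds the microRNA gene MIR211, had the 2 largest falls of the 10 genes. With SCDi in IGR37 it went from 6.05, 6.04 and 6.12 to 3.71, 4.06 and 4.43 (-2.0 ± 0.16, adjusted p = 3.51e-10). With siSCD_1 in 501mel it went from 5.45, 5.40 and 5.41 to 3.73, 3.31 and 3.39 (-1.95 ± 0.11, adjusted p = 2.61e-09). On a linear scale 24.9% and 26.0% of the control level was left. With siSCD_2 in IGR37 the values 4.69, 4.23 and 5.18 were spread more widely but lay below 6.18, 6.19 and 6.12 (-1.46 ± 0.16, adjusted p = 7.8e-08). The siSCD_1 values in IGR37 were 5.51, 5.55 and 5.45 against 6.44, 6.42 and 6.39 (-0.91 ± 0.11, adjusted p = 1.23e-05). TRPM1 did not pass in 501mel with siSCD_2, at 4.85, 4.67 and 4.91 against 4.94, 5.03 and 4.93 (-0.16 ± 0.16, adjusted p = 0.496), or with SCDi, at 6.05, 5.88 and 6.06 against 5.90, 5.88 and 6.06 (0.05 ± 0.16, adjusted p = 0.979).

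RAB27A (ENSG00000069974, hg38 chromosome 15, 55202966 to 55319113, minus strand), the small GTPase of melanosome transport, fell in just 2 comparisons, and by about as much in each. With siSCD_1 in 501mel it went from 7.34, 7.19 and 7.16 to 6.02, 6.20 and 5.95 (-1.18 ± 0.09, adjusted p = 3.28e-08), and with SCDi in IGR37 from 7.31, 7.20 and 7.26 to 6.15, 6.15 and 6.30 (-1.06 ± 0.10, adjusted p = 1.77e-09). In the other 4 the groups overlapped. With siSCD_1 in IGR37 it was at 7.27, 7.13 and 7.29 against 7.32, 7.19 and 7.21 (-0.01 ± 0.09, adjusted p = 0.935), with SCDi in 501mel at 7.38, 7.37 and 7.35 against 7.39, 7.24 and 7.34 (0.04 ± 0.10, adjusted p = 0.949), and with siSCD_2 in 501mel at 7.15, 6.95 and 6.93 against 6.83, 6.95 and 7.01 (0.08 ± 0.10, adjusted p = 0.577). With siSCD_2 in IGR37 the values 7.07, 6.77 and 7.29 spanned the controls at 7.17, 7.15 and 7.18 (-0.12 ± 0.10, adjusted p = 0.312). Without the siSCD_2 library whose number differs between the labels and the table (the library with no number from here on), this change was -0.25 and passed (adjusted p = 0.0323).

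**Figure D3:**
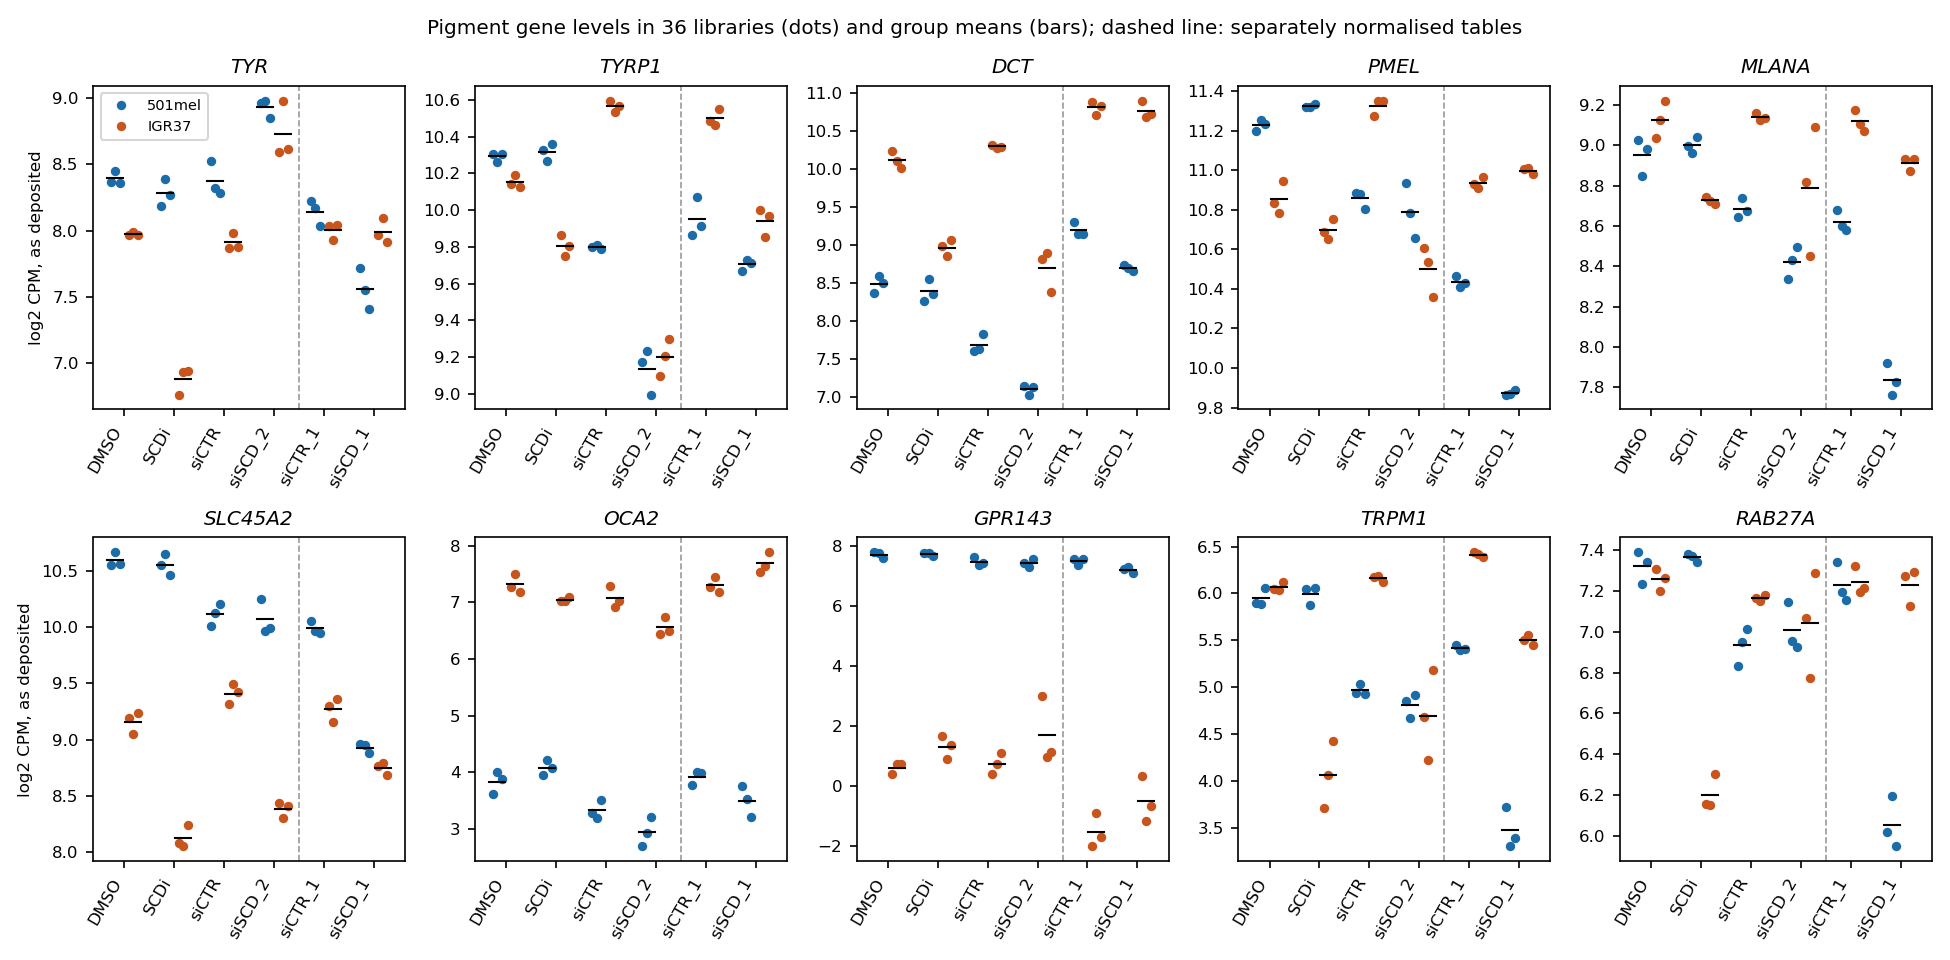
Points are single libraries, in log2 CPM, for each of the 10 genes in the 12 groups (3 libraries each, bars at the group means), and a dashed line parts the separately normalised tables. The IGR37 SCDi and siSCD_2 libraries lie below their controls for DCT, SLC45A2 and TRPM1, TYR lies lower with SCDi and higher with siSCD_2, and GPR143 is near the floor of the depth in IGR37.

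MITF mRNA is set beside the 10 genes as a reference. It fell with SCDi in IGR37 (-0.92 ± 0.08, adjusted p = 9.74e-10), with siSCD_1 in 501mel (-1.08 ± 0.06, adjusted p = 1.37e-09) and IGR37 (-0.33 ± 0.06, adjusted p = 0.000402), and with siSCD_2 in 501mel (-0.35 ± 0.08, adjusted p = 0.001) and IGR37 (-1.13 ± 0.08, adjusted p = 2.45e-11). With SCDi in 501mel it was -0.02 ± 0.08 (adjusted p = 0.979). SOX10, which activates MITF, fell with SCDi in IGR37 (-0.50 ± 0.10, adjusted p = 0.000129), with siSCD_1 in 501mel (-0.26 ± 0.08, adjusted p = 0.0145), and with siSCD_2 in 501mel (-0.77 ± 0.10, adjusted p = 4.73e-07) and IGR37 (-0.54 ± 0.10, adjusted p = 4.35e-05). It did not pass with SCDi in 501mel (-0.10 ± 0.10, adjusted p = 0.817) or siSCD_1 in IGR37 (-0.12 ± 0.08, adjusted p = 0.274). With siSCD_2 MITF fell while TYR rose in both lines on the deposited scale. An siRNA can also lower transcripts other than its target, and the part of this in the siSCD_1 and siSCD_2 changes of MITF and the 10 genes was not tested.

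A search for the genes most like the pigment genes ranked 6032 genes by their correlation with the mean profile of 9 of the 10 (GPR143 was left out for its low level), after each line's mean was taken out. The points are 24 and 12 libraries that share lines, controls and treatments, so the correlations are a description only. MITF ranked 1 (r = 0.96 and 0.99 in the tables of 24 and 12 libraries), and also among the most alike were AKAP1 (0.90 and 0.90), an anchor for protein kinase A on mitochondria, CDK2 (0.90 and 0.95), a cell cycle kinase, and FASTKD2 (0.89 and 0.92), a mitochondrial RNA-binding protein. SOX10 ranked 30 (0.85 and 0.85). Against the mean of the other profile genes, TRPM1 (0.96 and 0.95), SLC45A2 (0.94 and 0.94), DCT (0.92 and 0.93), MLANA (0.84 and 0.98), PMEL (0.79 and 0.92) and RAB27A (0.75 and 0.96) had high values in both tables. TYRP1 (0.80 and 0.44) and OCA2 (0.60 and 0.41) were lower in the table of 12. TYR followed the others in the table of 12 (0.92) and not in the table of 24 (-0.11), which holds the siSCD_2 groups.

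The next question was whether each treatment acted differently in the lines, tested as the effect in IGR37 minus the effect in 501mel. For the inhibitor the difference was called for 8 of the 10 genes, all of them lower in IGR37, where 27.6% of all genes were called in either direction. It was -2.05 ± 0.23 for TRPM1 (adjusted p = 3.56e-07), -1.10 ± 0.14 for RAB27A (adjusted p = 1.17e-06), -1.06 ± 0.15 for DCT (adjusted p = 6.69e-06), -0.99 ± 0.12 for SLC45A2 (adjusted p = 1.11e-06) and -0.99 ± 0.13 for TYR (adjusted p = 2.24e-06). The differences were smaller for OCA2 (-0.52 ± 0.20, adjusted p = 0.0486), MLANA (-0.45 ± 0.14, adjusted p = 0.0194) and TYRP1 (-0.37 ± 0.10, adjusted p = 0.00668). OCA2 lost its call when any of 9 of the 12 libraries involved was left out (501mel DMSO replicates 1 and 3, 501mel SCDi replicates 2 and 3, IGR37 DMSO replicates 1 and 2 and IGR37 SCDi replicates 1, 2 and 3, with -0.41 to -0.54). MLANA lost it without 501mel DMSO replicate 2 or IGR37 DMSO replicate 3 (-0.40 in both) and under quantile normalisation (-0.31, adjusted p = 0.103). On the spike-in scale OCA2, MLANA and TYRP1 did not pass (-0.87, -0.80 and -0.72, adjusted p = 0.212, 0.200 and 0.283). The median of all genes lay at -0.38 there. PMEL (-0.25 ± 0.11, adjusted p = 0.104) and GPR143 (0.67 ± 0.44, adjusted p = 0.28) did not pass, though both passed in a fit of only the groups compared (adjusted p = 0.0241 and 0.0355).

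For siSCD_1 the sign was the other way round. The difference was called for 9 of the 10 genes, beside 20.3% of all genes, and for 8 of the 9 the effect was more negative in 501mel. These were RAB27A (1.17 ± 0.12, adjusted p = 2.88e-05), TRPM1 (1.04 ± 0.16, adjusted p = 0.000478), OCA2 (0.81 ± 0.19, adjusted p = 0.00904), PMEL (0.62 ± 0.08, adjusted p = 0.000127), MLANA (0.58 ± 0.09, adjusted p = 0.000537), TYR (0.58 ± 0.12, adjusted p = 0.00393), SLC45A2 (0.54 ± 0.10, adjusted p = 0.00132) and DCT (0.45 ± 0.10, adjusted p = 0.0066). TYRP1 was the exception, lowered more in IGR37 (-0.31 ± 0.10, adjusted p = 0.0315). That call was lost without 501mel siCTR_1 replicate 1 or 3, 501mel siSCD_1 replicate 2 or 3, IGR37 siCTR_1 replicate 1 or 3 or IGR37 siSCD_1 replicate 2 (-0.27 to -0.32). The DCT difference was lost under quantile normalisation (0.23, adjusted p = 0.148). On the spike-in scale RAB27A kept its call and the other 8 lost theirs (adjusted p from 0.0652 to 0.560). The sizes of these 8 changed little, and the median of all genes lay at -0.026 there. They were 1.01 for TRPM1, 0.78 for OCA2, 0.60 for PMEL and 0.55 for MLANA. For TYR the size was 0.55, for SLC45A2 0.51, for DCT 0.43 and for TYRP1 -0.34. GPR143, with its few IGR37 reads, did not pass (1.33 ± 0.47, adjusted p = 0.0566) but did without IGR37 siCTR_1 replicate 2 or siSCD_1 replicate 2 or 3 (1.65, 1.67 and 1.42), under quantile normalisation, with centring, and with a filter that kept genes of a mean log2 value of at least 2 (1.33, adjusted p = 0.0349).

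For siSCD_2 the difference was called for 5 of the 10, beside 21.1% of all genes, and for all 5 the effect was more negative in IGR37. They were TRPM1 (-1.31 ± 0.23, adjusted p = 0.000221), DCT (-1.01 ± 0.15, adjusted p = 2.22e-05), SLC45A2 (-0.98 ± 0.12, adjusted p = 2.08e-06), PMEL (-0.76 ± 0.11, adjusted p = 2.78e-05) and TYRP1 (-0.70 ± 0.10, adjusted p = 1.65e-05). On the spike-in scale, where the median gene moved to 0.41 in this difference, none of the 5 passed. GPR143 (1.00 ± 0.44, adjusted p = 0.108) passed without IGR37 siSCD_2 replicate 2 or the library with no number (1.36 and 1.29). The rise of TYR did not differ between the lines past the threshold (0.26 ± 0.13, adjusted p = 0.153). In SCD mRNA itself the lines did not differ past the threshold with siSCD_1 (0.18 ± 0.10, adjusted p = 0.213) or siSCD_2 (0.18 ± 0.22, adjusted p = 0.616).

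**Figure D4:**
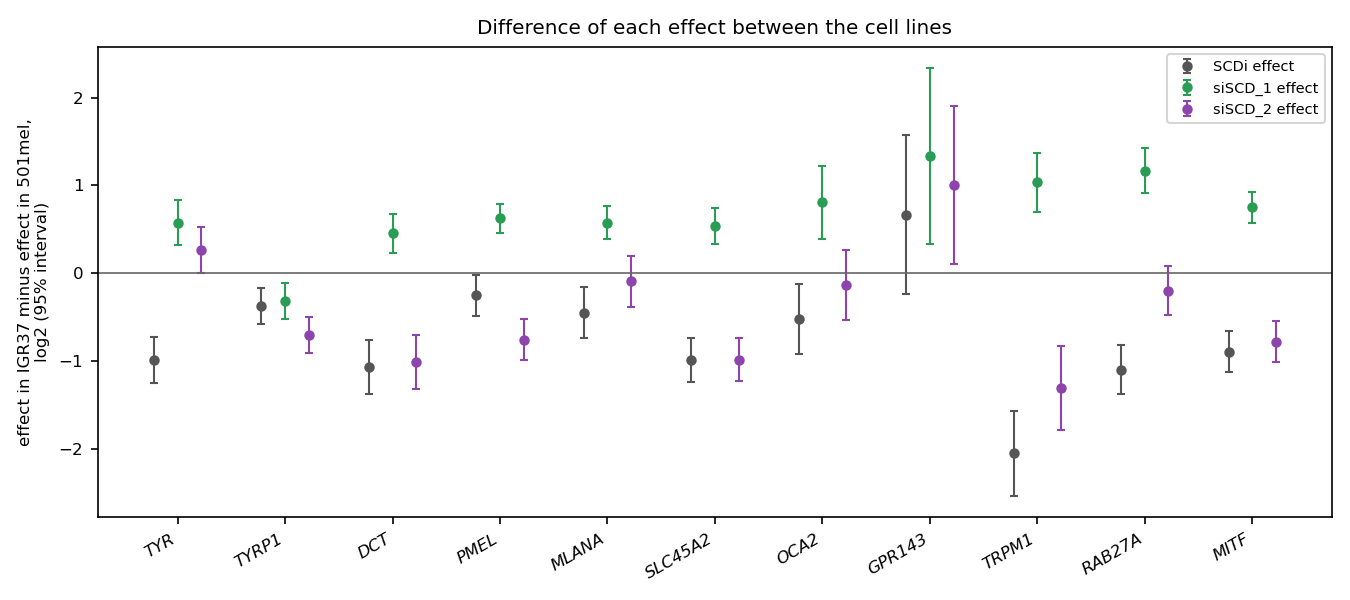
Points give the effect in IGR37 minus the effect in 501mel, in log2 units with 95% intervals from limma, for the 10 genes and MITF under each treatment. The siSCD_1 points are above 0 for all genes shown but TYRP1, while the SCDi points are below 0 for all but GPR143.

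The inhibitor and siSCD_2 could be compared within a table, as the SCDi effect minus the siSCD_2 effect. The inhibitor reached the cells as a small molecule against DMSO and the siRNA against siCTR, so the 2 effects have different controls. In IGR37 the difference was called for 5 of the 10 genes, beside 38.8% of all genes. TYR differed most, by -1.92 ± 0.13 (adjusted p = 1.32e-11), and RAB27A by -0.93 ± 0.14 (adjusted p = 4.95e-06), both lower with the inhibitor. TYRP1 (1.02 ± 0.10, adjusted p = 1.4e-08), PMEL (0.67 ± 0.11, adjusted p = 3.97e-05) and DCT (0.44 ± 0.15, adjusted p = 0.021) were lower with siSCD_2. The DCT difference was lost without IGR37 DMSO replicate 3, SCDi replicate 3 or the siSCD_2 library with no number (0.39, 0.39 and 0.28). SLC45A2, which fell by 1.03 with each, differed by -0.01, with a 95% interval of -0.26 to 0.24 (adjusted p = 0.972). For TRPM1 the difference was -0.54 ± 0.23 (adjusted p = 0.0696), and it passed without SCDi replicate 3 (-0.72, adjusted p = 0.0157) or siSCD_2 replicate 2 (-0.77, adjusted p = 0.00292).

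In 501mel 4 of the 10 genes differed between the inhibitor and siSCD_2, beside 21.0% of all genes. TYR was lower with the inhibitor (-0.67 ± 0.13, adjusted p = 0.000396), and TYRP1 (0.69 ± 0.10, adjusted p = 1.47e-05), OCA2 (0.63 ± 0.20, adjusted p = 0.0222) and DCT (0.49 ± 0.15, adjusted p = 0.0183) were lower with siSCD_2. None of the 10 had passed with the inhibitor alone in this line. The spike-in scale moved the median of all genes to 1.05 in this comparison and turned the TYR difference to 0.36, still below that median. OCA2 lost its call without DMSO replicate 1, SCDi replicate 2, siCTR replicate 3 or siSCD_2 replicate 1 (0.52, 0.56, 0.53 and 0.50), and DCT without DMSO replicate 1, SCDi replicate 2 or siCTR replicate 3 (0.44, 0.41 and 0.43). The knockdown lowered SCD mRNA by over 4 log2 units and the inhibitor did not lower it, and no measure of enzyme activity was analysed here.

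The untreated levels of the lines differed for several of the 10 genes. Under DMSO, where 60.8% of all genes differed, 6 of the 10 did. IGR37 had more DCT (1.64 ± 0.11, adjusted p = 1.32e-12) and OCA2 (3.49 ± 0.14, adjusted p = 1.26e-16) and less GPR143 (-7.09 ± 0.31, adjusted p = 7.7e-16), SLC45A2 (-1.43 ± 0.09, adjusted p = 3.45e-13), TYR (-0.42 ± 0.09, adjusted p = 0.000293) and PMEL (-0.37 ± 0.08, adjusted p = 0.00028). Single libraries show the gap for OCA2, at 3.62, 4.0 and 3.88 in 501mel and 7.27, 7.50 and 7.19 in IGR37, and for GPR143, at 7.79, 7.75 and 7.58 in 501mel and 0.39, 0.74 and 0.73 in IGR37. With siCTR, where 62.6% of all genes differed, all 10 did, though RAB27A only narrowly (0.23 ± 0.10, adjusted p = 0.0371, lost without any of 5 libraries: 501mel siCTR replicates 1 and 2 and IGR37 siCTR replicates 1, 2 and 3). PMEL was then higher in IGR37 (0.47 ± 0.08, adjusted p = 1.78e-05), the reverse of its order under DMSO, and TRPM1 (1.19 ± 0.16, adjusted p = 7.96e-07) and TYRP1 (0.77 ± 0.07, adjusted p = 1.08e-09) were higher too. With siCTR_1, where 60.4% of all genes differed, 8 of the 10 did, with DCT, OCA2, TRPM1, TYRP1, PMEL and MLANA higher in IGR37 (0.50 to 3.38) and SLC45A2 (-0.72 ± 0.07) and GPR143 (-9.02 ± 0.33) lower.

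The control siRNA and DMSO groups, both without a treatment aimed at SCD, were also compared. In 501mel 7 of the 10 were lower with siCTR than with DMSO and none higher, beside 11.3% of all genes in either direction. They were TRPM1 (-0.98 ± 0.16, adjusted p = 0.000223), DCT (-0.79 ± 0.11, adjusted p = 1.04e-05), OCA2 (-0.51 ± 0.14, adjusted p = 0.0169), TYRP1 (-0.49 ± 0.07, adjusted p = 3.22e-05), SLC45A2 (-0.48 ± 0.09, adjusted p = 0.000466), RAB27A (-0.39 ± 0.10, adjusted p = 0.00782) and PMEL (-0.37 ± 0.08, adjusted p = 0.00312). MITF was lower as well (-0.43 ± 0.08, adjusted p = 0.000669). The OCA2 call was lost without DMSO replicate 2 or 3 or siCTR replicate 1 or 2 (-0.42, -0.48, -0.48 and -0.44), and the PMEL call under quantile normalisation (-0.22, adjusted p = 0.0747). None of the 7 passed on the spike-in scale, though the median of all genes lay at -0.0079 there and the changes kept nearly their size. In IGR37, with 15.5% of all genes called, 3 of the 10 were higher with siCTR and none lower: PMEL (0.47 ± 0.08, adjusted p = 0.000189), TYRP1 (0.41 ± 0.07, adjusted p = 0.000234) and SLC45A2 (0.25 ± 0.09, adjusted p = 0.0492). The SLC45A2 call was lost without DMSO replicate 1, 2 or 3 or siCTR replicate 2 or 3 (0.27, 0.19, 0.29, 0.21 and 0.24). The siSCD_2 changes are measured from these shifted siCTR levels, and the part of the shift in them was not tested.

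**Figure D5:**
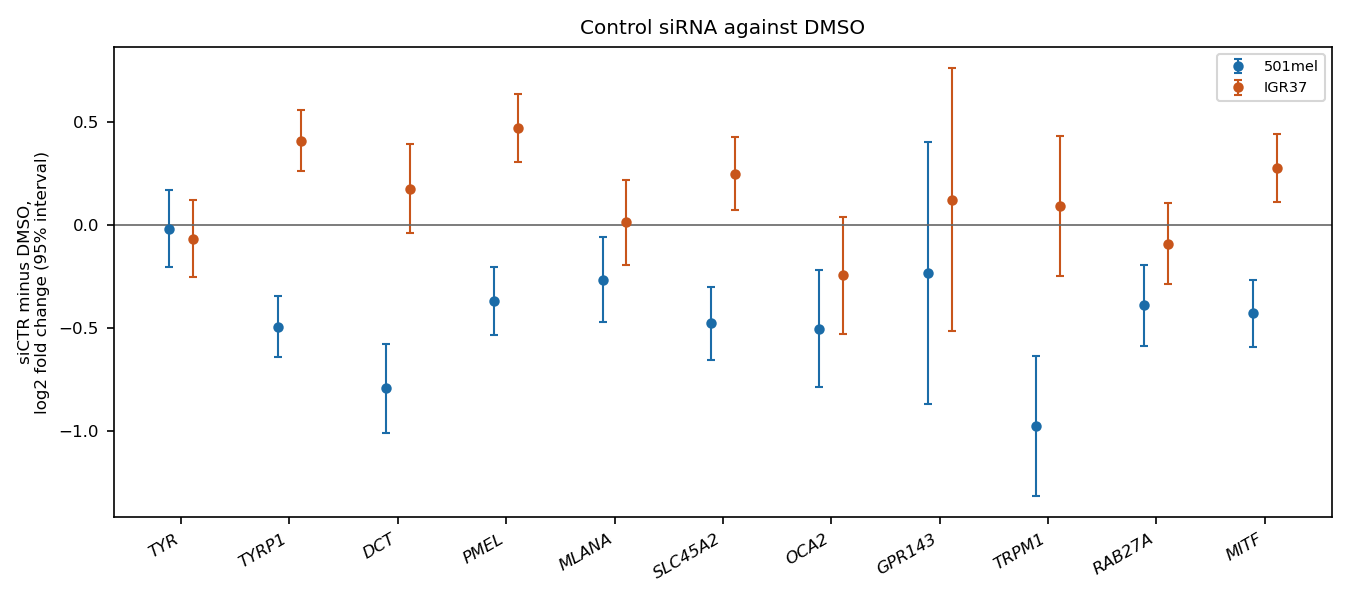
Points give siCTR minus DMSO in log2 units, with 95% intervals from limma, for the 10 genes and MITF in 501mel (blue) and IGR37 (orange). Most 501mel points lie below 0, down to -0.98 for TRPM1, while PMEL and TYRP1 lie above 0 in IGR37.

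Other genes of the melanosome moved in both directions, and the counts of every list here stand beside the shares of all genes that fell and rose: 23.1% and 20.9% with SCDi in IGR37, 22.0% and 20.9% with siSCD_1 in 501mel, 19.4% and 16.7% with siSCD_1 in IGR37, 19.5% and 18.3% with siSCD_2 in 501mel, and 22.7% and 23.2% with siSCD_2 in IGR37. A count near those shares is no result about a list. Of 15 further melanosome proteins and carriers, 8 fell and 1 rose with SCDi in IGR37, 6 fell and 2 rose with siSCD_1 in 501mel, 4 and 2 with siSCD_1 in IGR37, 1 and 4 with siSCD_2 in 501mel, and 7 and 5 with siSCD_2 in IGR37. None passed with SCDi in 501mel in limma, where 2 were lower and 1 higher at an unadjusted p under 0.05. SLC7A11, the cystine transporter that feeds the sulfur-rich pheomelanin, rose in all 5: by 4.36 ± 0.15 with SCDi in IGR37 (adjusted p = 4.8e-17), by 1.93 ± 0.13 and 2.43 ± 0.13 with siSCD_1 in 501mel and IGR37, and by 2.35 ± 0.15 and 1.75 ± 0.15 with siSCD_2. SLC24A5, the potassium-dependent sodium/calcium exchanger of pigmentation, fell by 1.00 ± 0.09 with SCDi and 0.70 ± 0.11 with siSCD_1 in IGR37. MREG (melanoregulin), a factor in melanosome transport, fell by 1.81 ± 0.19 with SCDi in IGR37. RAB32, which sorts enzymes to melanosomes, fell by 1.02 ± 0.08 and 1.01 ± 0.08 with siSCD_1 in 501mel and IGR37.

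Of 27 measured genes of the complexes that build melanosomes (29 listed), 9 fell and 5 rose with SCDi in IGR37. With siSCD_1 7 fell and 5 rose in 501mel, and 5 fell and 7 rose in IGR37. With siSCD_2 5 fell and 7 rose in 501mel, and 7 fell and 6 rose in IGR37. LYST, a regulator of lysosome-related organelle size, rose with SCDi in IGR37 (0.77 ± 0.13), with siSCD_1 (1.69 ± 0.10 and 0.90 ± 0.10) and with siSCD_2 in 501mel (1.02 ± 0.13). SNAPIN, a subunit of the BLOC-1 complex, fell by 1.34 ± 0.12 with siSCD_1 in each line. AP3D1, a subunit of the AP-3 adaptor that sorts tyrosinase, fell with siSCD_2 by 1.45 ± 0.11 and 0.94 ± 0.11. Of 12 measured transport and transfer genes (14 listed), 2 fell and 1 rose with SCDi in IGR37. With siSCD_1 3 fell and 2 rose in 501mel, and 1 fell and 3 rose in IGR37. With siSCD_2 5 fell and 2 rose in 501mel, and 5 fell and 3 rose in IGR37. MYO5A, the myosin motor that RAB27A recruits, rose by 0.55 ± 0.10 with siSCD_1 in IGR37 and 1.12 ± 0.13 with siSCD_2 in 501mel. MLPH, melanophilin, the adaptor between them, fell by 0.88 ± 0.12 with siSCD_2 in IGR37, and RAB3D fell with siSCD_2 in 501mel (-2.77 ± 0.25) and IGR37 (-2.75 ± 0.25).

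Among 23 listed targets of MITF outside pigment synthesis, 16 fell and 3 rose with SCDi in IGR37. With siSCD_1 10 fell and 5 rose in 501mel, and 7 fell and 4 rose in IGR37. With siSCD_2 8 fell and 2 rose in 501mel, and 12 fell and 3 rose in IGR37. CDK2 fell with SCDi in IGR37 (-0.96 ± 0.12), with siSCD_1 (-1.50 ± 0.13 and -0.55 ± 0.13) and with siSCD_2 (-0.92 ± 0.12 and -1.66 ± 0.12). PPARGC1A, a regulator of mitochondrial biogenesis, fell with siSCD_1 in 501mel (-1.24 ± 0.14) and siSCD_2 in IGR37 (-2.55 ± 0.16). MET, the receptor of hepatocyte growth factor, fell with siSCD_2 in IGR37 (-1.76 ± 0.08). The largest called change of this list with siSCD_1 in IGR37 was a rise, of ST3GAL6 (1.18 ± 0.08). The list of pigment cell transcription and signalling genes (26 listed, 25 and 24 measured) moved both ways, with 10 lower and 7 higher with SCDi in IGR37. With siSCD_1 9 fell and 9 rose in 501mel, and 9 fell and 7 rose in IGR37. With siSCD_2 5 fell and 10 rose in 501mel, and 5 fell and 11 rose in IGR37. KIT, the receptor of stem cell factor, fell with SCDi in IGR37 (-1.59 ± 0.15) and siSCD_1 in 501mel (-1.91 ± 0.13). CITED1, a transcription cofactor of pigment cells, rose with SCDi in IGR37 (2.31 ± 0.22), siSCD_1 (1.61 ± 0.12 and 1.52 ± 0.12) and siSCD_2 in 501mel (1.38 ± 0.22). With SCDi in 501mel limma called no gene of any list above, with 0 to 2 lower and 0 to 3 higher per list at an unadjusted p under 0.05. Of the 10 lineage markers, which include TYR, PMEL, MLANA, DCT and MITF, 6 fell and 1 rose with SCDi in IGR37. With siSCD_1 6 fell and 3 rose in 501mel, and 3 fell and 2 rose in IGR37. With siSCD_2 4 fell and 4 rose in 501mel, and 5 fell and 5 rose in IGR37. The marker S100B fell with SCDi in IGR37 (-1.49 ± 0.09) and rose with siSCD_2 in 501mel (1.83 ± 0.09) and IGR37 (2.16 ± 0.09).

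Markers of other cell types moved in some comparisons too. CD68 of blood cells rose with SCDi in IGR37 (2.16 ± 0.19) and fell with siSCD_2 in 501mel (-1.25 ± 0.19) and IGR37 (-1.72 ± 0.19). Of the 5 fibroblast genes measured beside SCDi and siSCD_2, at the low summed levels given above, 4 fell with SCDi in IGR37, among them DCN (-3.06 ± 1.10), COL1A1 (-2.31 ± 0.81) and LUM (-1.91 ± 0.32). With siSCD_2 FAP rose in 501mel (1.43 ± 0.27), and in IGR37 DCN (2.78 ± 1.10) and FAP (0.76 ± 0.27) rose and COL1A1 fell (-2.05 ± 0.81). Of the 3 measured beside siSCD_1, LUM rose in 501mel (1.25 ± 0.23) and PDGFRA fell in IGR37 (-3.12 ± 1.06). KRT10 of keratinocytes rose in IGR37 with SCDi (0.24 ± 0.09) and siSCD_2 (0.26 ± 0.09). VWF of endothelial cells was called higher with siSCD_1 in 501mel (2.68 ± 0.56), on very few reads. It had no reads with siCTR_1, and the endothelial genes together reached 0.27 to 0.61 CPM with siSCD_1. COL1A1 had no reads in the IGR37 SCDi and siSCD_2 libraries. The part of these markers in the pigment gene values was not tested.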

How the data were processed

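Transcript ends were measured with QuantSeq Forward libraries from RNeasy-purified total RNA, per the labels' protocols. Reads were aligned with STAR to hg38 and normalised with edgeR, per the submitters' processing notes, which give no versions. The deposited values are on a log2 scale, in 2 separately normalised tables. They had the form of log2 CPM with a prior count of 0.25, and turning them back gave reads that were whole to within 0.000382 and 0.000282 (100% of values at a tolerance of 0.1). Spike-ins took 2.43 to 7.21% and 3.76 to 5.71% of reads and, like 1 Mitf-FLAG row with 2 to 25 reads per library, stayed out of the tests. Libraries of a group differed by more than sampling noise (chi-square per gene of 1.94 or more), so none was taken as a duplicate. Symbols were matched to GENCODE 29 for 12605 and 12350 genes.

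Each table was fitted on the deposited values with limma 3.58.1 in R 4.3.3 (lmFit, contrasts.fit, eBayes), letting the variance follow the mean level; each group had its own coefficient and the spread was estimated over all libraries. Tests were two-sided and adjusted by Benjamini-Hochberg over all genes of the table, at a threshold of 0.05, for 16 comparisons. Tables were handled in Python 3.11.15 with pandas 2.3.3 and numpy 2.4.6. On simulated reads of SCDi against DMSO in 501mel (13364 genes), 96% of 2-fold rises and 68% of 1.5-fold rises were recovered. Of the calls, 4 of 173 were false from 10 CPM up (2.31%), but 31 further false calls had lower levels. In simulated siSCD_1 against siCTR_1 in 501mel (13066 genes), 98% and 78% were recovered, with 6 of 178 false from 10 CPM up (3.37%) and 31 below it. GPR143 in IGR37 lies in that low range, and the limma p-values there may be too small. Of all 35 and 37 false calls of the 2 simulations, 28 and 23 were genes over 5-fold higher in another group. OCA2 in 501mel is such a gene, at 10.1 and 15.2 CPM with siCTR and siCTR_1 against 136 and 159 CPM in IGR37. Its limma p-values in 501mel may also be too small. Both simulations drew the changed genes from levels above 10 CPM and gave all genes the same dispersion. Real libraries of a group differed by a chi-square per gene of up to 28.6 and 6.80 in the tables of 24 and 12. Recovery and false shares in the real data may therefore differ from those simulated.

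The 10 genes and the other gene lists were chosen with earlier results of these data known. Named were the 10 genes, MITF, SOX10 and SCD in each comparison. From each other list, names came from the up to 3 largest changes past the threshold in each of the 6 treated-against-control comparisons. The 5 genes most like the 10 were taken among named genes at or above the median level. A gene that this rule names is not reported here. Genes of 3' tag libraries overlapping on a strand cannot be told apart. The labels number the IGR37 siSCD_2 libraries differently from the table's columns, so 1 column was given to its group only.

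Alternatives were leaving out each library in turn, a replicate block, scaling by the median spike-in, centring on the median gene, quantile normalisation, filters on low values, a pseudocount of 1, a constant prior variance, and a fit restricted to the groups compared. limma voom on the recovered reads was added after the data were seen. The planned count tests with edgeR and DESeq2 were not run, because the deposited unit is log2.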

Additional observations from a re-analysis of the deposited data

Results flagged for a closer look

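The effect of a treatment differed between IGR37 and 501mel for many of the 10 genes by the limma test of the difference itself, which is what marked the values here. For SCDi, IGR37 minus 501mel was -0.99 for TYR, -0.37 for TYRP1, -1.06 for DCT, -0.45 for MLANA, -0.52 for OCA2, -0.99 for SLC45A2, -2.05 for TRPM1 and -1.10 for RAB27A. For siSCD_1 it was 0.58 for TYR, -0.31 for TYRP1, 0.45 for DCT, 0.62 for PMEL, 0.58 for MLANA, 0.81 for OCA2, 0.54 for SLC45A2, 1.04 for TRPM1 and 1.17 for RAB27A. For siSCD_2 it was -0.70 for TYRP1, -1.01 for DCT, -0.76 for PMEL, -0.98 for SLC45A2 and -1.31 for TRPM1. SCDi and siSCD_2 share a table but not a control, and siSCD_1 was normalised apart. The SCDi and siSCD_1 differences had opposite signs for TYR, DCT, MLANA, OCA2, SLC45A2, TRPM1 and RAB27A, and a test between those 2 tables was not made.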

How the results depend on the processing

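A filter of values above 0 in 3 libraries changed no call of the 10 genes, and one of a mean log2 value of at least 2 changed 1: GPR143 passed in the siSCD_1 line difference (1.33, adjusted p = 0.0349), which made 9 higher (8). Over all alternatives but leaving out a library, 88 values of single genes lost a call, 25 gained one and 29 turned in sign. The scaling by spike-ins changed most: over the 10 genes it gave 0 higher with siSCD_2 in 501mel (1 on the deposited scale) and 0 in IGR37 (2), and 1 higher with siSCD_1 in IGR37 (2). For line differences it gave 5 lower with SCDi (8), 0 lower and 1 higher with siSCD_1 (1 and 8) and 0 lower with siSCD_2 (5). For SCDi minus siSCD_2 it gave 0 lower and 8 higher in 501mel (1 and 3) and 1 lower and 1 higher in IGR37 (2 and 3). Between lines it gave 2 lower under DMSO (4) and 3 higher under siCTR (7), and for siCTR against DMSO 0 lower in 501mel (7) and 0 higher in IGR37 (3). The count higher with siSCD_1 in IGR37 was 1 in a fit of only the groups compared, with a pseudocount of 1, with a replicate block and with voom, and 0 without a variance trend. With siSCD_2 in IGR37 it was 1 in a fit of only the groups compared and with voom. A fit of only the groups compared gave 1 higher in the SCDi line difference (0), and the lower count of the siSCD_1 line difference was 0 without a trend and with centring (1).

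Signs turned on the spike-in scale for TYR, DCT and SLC45A2 with SCDi in 501mel (0.42, 0.44 and 0.49), PMEL with SCDi in IGR37 (0.024), RAB27A with siSCD_2 in 501mel (-0.42), OCA2, RAB27A and MLANA in the siSCD_2 line difference (0.25, 0.19 and 0.29), TYR and RAB27A in SCDi minus siSCD_2 in 501mel (0.36 and 1.00), SLC45A2, MLANA and GPR143 in IGR37 (0.29, 0.25 and 0.036), and TRPM1, MLANA and GPR143 for siCTR against DMSO in IGR37 (-0.075, -0.15 and -0.045). Quantile normalisation turned TYR and RAB27A with siSCD_1 in IGR37 (0.041 and 0.00079), SLC45A2 in SCDi minus siSCD_2 (-0.064 in 501mel, 0.25 in IGR37), MLANA there in IGR37 (0.14), RAB27A and TYRP1 between lines under DMSO (0.00089 and 0.0059) and TYR for siCTR against DMSO in 501mel (0.048). Centring turned TYR and RAB27A with siSCD_1 in IGR37 (0.0086 and 0.0058), SLC45A2 in SCDi minus siSCD_2 in 501mel (-0.020) and RAB27A between lines under siCTR_1 (-0.062). Of the results that turned, TYR in SCDi minus siSCD_2 in 501mel had been called on the deposited scale. Spike-in scaling and centring subtract the same value from every gene of a library, so all genes of a comparison shift alike. In that SCDi minus siSCD_2 comparison the spike-in scale moved the median of all genes from 0.020 to 1.05. Quantile normalisation shifts genes unequally, and why signs turned under it was not tested.

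Replicate numbers did not pair the libraries (5 of 17 same-number pairs above 0.1, r from -0.20 to 0.27). The replicate block, fitted without the library with no number, gave 1 higher with SCDi in IGR37 (0) and 1 higher in the siSCD_2 line difference (0), and turned MLANA in SCDi minus siSCD_2 in IGR37 (0.091). With 1 library left out, counts ranged over 0 to 1 (higher, SCDi in IGR37), 0 to 2 (higher, siSCD_1 in IGR37), 2 to 4 (lower, siSCD_2 in 501mel), 1 to 2 (higher, siSCD_2 in IGR37), 0 to 1 (lower, siSCD_1 line difference), 0 to 1 (higher, siSCD_2 line difference) and 1 to 3 (higher, SCDi minus siSCD_2 in 501mel). Leaving out 1 library turned the sign of 23 of 160 results, none with an adjusted p under 0.312. Their ranges were -0.034 to 0.069 (GPR143), -0.0049 to 0.083 (MLANA), -0.0010 to 0.077 (RAB27A) and -0.087 to 0.0046 (SLC45A2) for SCDi in 501mel. They were -0.11 to 0.0014 (DCT), -0.042 to 0.039 (RAB27A) and -0.061 to 0.030 (TYR) for siSCD_1 in IGR37. For siSCD_2 they were -0.11 to 0.029 (GPR143), -0.14 to 0.00046 (PMEL) and -0.13 to 0.0069 (SLC45A2) in 501mel, -0.25 to 0.012 (RAB27A) in IGR37, and -0.24 to 0.078 (MLANA) and -0.26 to 0.00038 (OCA2) for the line difference. For SCDi minus siSCD_2 they were -0.0020 to 0.14 (GPR143), -0.077 to 0.036 (RAB27A) and -0.047 to 0.093 (SLC45A2) in 501mel, and -0.62 to 0.39 (GPR143), -0.21 to 0.11 (MLANA) and -0.066 to 0.039 (SLC45A2) in IGR37. For siCTR against DMSO they were -0.091 to 0.029 (TYR, 501mel), -0.050 to 0.29 (GPR143, IGR37) and -0.031 to 0.060 (MLANA, IGR37), and between lines under siCTR_1 -0.028 to 0.068 (RAB27A). Over all genes, SCDi in 501mel gave 8 lower and 31 higher, against 1 and 7 in a fit of only the groups compared, 3 lower without a trend, 19 higher with voom, and 0 and 83 on the spike-in scale. The spike-in scale changed counts over all genes by more than 1.5 times in most other comparisons too, for example from 2447 to 231 higher with siSCD_2 in 501mel and from 3093 to 669 lower with SCDi in IGR37. Fits of only the groups compared gave 782 lower in the siSCD_2 line difference (1266), and 548 lower and 403 higher for siCTR against DMSO in 501mel (878 and 633). Depth limits GPR143 in IGR37 and OCA2 in 501mel, which had 6 to 63 and 121 to 286 reads per group.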
